A study of Mus musculus with 3 samples.

Results

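The genes Ttr, Folr1, Clic6, Kl, Kcnj13, Enpp2 and Aqp1, which are known for their expression in the choroid plexus, were followed across single-cell libraries of the mouse brain. They are 7 of the 31053 genes in the count matrix. Barcodes with a count of at least 1 for 2 or more of the 4 genes Folr1, Clic6, Kl and Kcnj13, here called rule genes, were taken as choroid plexus barcodes, which gave 275 of 31982 barcodes. The levels of the rule genes in these barcodes therefore follow from the choice and are only described, whereas Ttr, Enpp2 and Aqp1 had no part in it.

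The study compared brain tissue of control mice, mice with Ischemic Stroke (IS) and mice with Hemorrhagic Stroke (HS), all labelled as strain C56BL6 and 10 weeks of age. Ischemia was induced by occlusion of the middle cerebral artery for 90 min and hemorrhage by collagenase injection. Tissue of 8 mice per condition was dissociated and sequenced as 1 library each, so that single animals cannot be told apart, and the methods do not state how long after stroke this tissue was taken. The barcodes of the 3 libraries carry the suffixes 1, 2 and 3, and neither the labels nor the methods tie a suffix to a condition. Values are given side by side by suffix, with no comparison of control, ischemic and hemorrhagic tissue and no test, and cells of a library are not replicates.

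The choroid plexus is a sheet of cuboidal epithelium around fenestrated capillaries in the brain ventricles. It secretes cerebrospinal fluid by moving ions and water from blood to ventricle, and it releases carrier proteins and growth factors into the fluid. Transthyretin, the product of Ttr, carries thyroid hormone and retinol-binding protein and is among the most abundant transcripts of this epithelium. RNA from lysed cells floats in a cell suspension and enters droplets with other cells, so an abundant transcript can be counted under barcodes of cells that do not make it.

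All 7 members are protein-coding genes, with positions on GRCm38 from GENCODE M21. Ttr lies at chr18:20665280-20674321 on the plus strand. Folr1, the folate receptor alpha that takes folate into the epithelium, lies at chr7:101858331-101870788 on the minus strand and overlaps Anapc15 on the other strand. Kcnj13, an inward rectifier potassium channel, lies at chr1:87386363-87394729 on the minus strand and overlaps Gigyf2 on the other strand. Clic6, an intracellular chloride channel protein, lies at chr16:92485736-92541243 on the plus strand. Kl encodes klotho, the co-receptor for the hormone Fgf23, and lies at chr5:150952607-150993817 on the plus strand. Enpp2 encodes autotaxin, the secreted enzyme that makes lysophosphatidic acid, and lies at chr15:54838901-54952892 on the minus strand. Aqp1 encodes the water channel aquaporin 1 and lies at chr6:55336432-55348555 on the plus strand. The sources used here do not state whether counting used strand, so reads of Folr1 and Kcnj13 cannot be assigned with certainty apart from those of their overlapping genes.

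Barcodes with at least 1000 unique molecular identifiers (UMIs, counted RNA molecules) and at most 30% mitochondrial UMIs were kept, which left 8969, 13769 and 9244 barcodes of suffix 1, 2 and 3. The deposited libraries held 69270514 to 105957232 UMIs. Between 24 and 43 barcode sequences were shared by each pair of suffixes, and 0 choroid plexus barcodes were among them. Other barcodes were given 1 of 16 classes by 6 marker genes each, and a class is called "-like" for this reason. Levels are counts per 1000000 UMIs (CPM) over the summed counts of a class, and each 95% interval, exact Poisson for a CPM and exact Clopper-Pearson for a share, covers counting error only.

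The sequences before the start sites are shown for the 3 members with a matched promoter. RefSeq promoters on GRCm38.p6 were matched for Kcnj13, Kl and Aqp1. The windows hold 250 bases each and lie at chr1:87394730-87394979 on the minus strand, chr5:150952357-150952606 on the plus strand and chr6:55336049-55336298 on the plus strand. The Kcnj13 and Kl windows adjoin the gene positions above, whereas the Aqp1 window ends at 55336298, short of the gene start at 55336432. Capitals mark the motifs found, and the sequences run 5′ to 3′ towards the gene.
Kcnj13: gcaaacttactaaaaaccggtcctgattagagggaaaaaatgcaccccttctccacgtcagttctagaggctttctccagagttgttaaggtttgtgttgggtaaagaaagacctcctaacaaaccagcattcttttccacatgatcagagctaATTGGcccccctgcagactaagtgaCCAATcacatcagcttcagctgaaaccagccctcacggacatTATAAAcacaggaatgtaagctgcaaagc
Kl: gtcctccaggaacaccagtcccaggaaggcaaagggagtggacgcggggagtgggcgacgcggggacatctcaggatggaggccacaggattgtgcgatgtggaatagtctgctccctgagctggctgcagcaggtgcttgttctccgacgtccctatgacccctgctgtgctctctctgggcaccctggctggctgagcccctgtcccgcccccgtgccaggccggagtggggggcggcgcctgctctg
Aqp1: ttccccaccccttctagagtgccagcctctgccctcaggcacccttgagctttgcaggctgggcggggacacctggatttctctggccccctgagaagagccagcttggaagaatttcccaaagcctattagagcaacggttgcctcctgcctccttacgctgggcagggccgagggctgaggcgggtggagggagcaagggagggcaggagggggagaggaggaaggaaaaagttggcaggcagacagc
Both strands were searched for the TATA-type letters TATAAA, for the box written CCAAT, for the Otx2-type letters TAATCC and for the forkhead letters TGTTTAC. Kcnj13 held TATAAA at 29 to 24 bases upstream, CCAAT at 71 to 67 bases and the reverse complement of the latter at 96 to 92 bases. Kl and Aqp1 held none of these letters in the window. Over 32851 promoter windows of the same length, the TATA-type letters were held by 12.4%, the box by 33.8%, the Otx2-type letters by 6.25% and the forkhead letters by 3.17%, each on either strand. GC content was 45.2% for Kcnj13, 66.8% for Kl and 62% for Aqp1, beside a median of 52.4% over all windows. A match describes the letters and does not show a binding site.

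Choroid plexus barcodes were unevenly spread over the libraries. There were 132 of suffix 1, or 1.47% of its barcodes (95% interval 1.23 to 1.74), 137 of suffix 2, or 0.995% (0.836 to 1.18), and 6 of suffix 3, or 0.0649% (0.0238 to 0.141). The interval of suffix 3 lies below those of the other suffixes. The paper presents the single-cell profiles as those of the striatum. However, how much of the ventricle was dissected into each library is not known, and this part was not tested. The choroid plexus barcodes were deeper than the rest in suffix 1, with a median of 14328.5 against 6346 UMIs, and in suffix 2, with 11782 against 5775, but not in suffix 3, with 6405 against 6287.5. Their median mitochondrial share was 2.72% against 3.20%, 2.64% against 3.01% and 6.36% against 5.18% in suffixes 1, 2 and 3. The filter removed a further 12 barcodes that met the rule, 10 for depth and 2 for mitochondrial share, with 92 to 621 Ttr UMIs each.

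Ttr, which the rule did not use, took 30.9% of all UMIs in the choroid plexus barcodes of suffix 1, 32.4% in suffix 2 and 8.85% in suffix 3. This was 309323 CPM (308572 to 310075), 324194 CPM (323461 to 324929) and 88537 CPM (85739 to 91404). The median barcode held 3753, 3605 and 243 Ttr UMIs, with highest values of 17984, 24507 and 2344. Suffixes 1 and 2 were close, although their CPM intervals do not overlap, and the lower value of suffix 3 rests on 6 barcodes. Of these, 4 held 2344, 954, 415 and 71 Ttr UMIs, and the other 2 held 0. Both of the latter had 1 UMI each of Folr1 and Clic6, no Kl, Kcnj13 or Enpp2, and all 6 ependymal markers, which goes against their choroid plexus label. These 2 were also the deepest of suffix 3, with 15484 and 11007 UMIs against 9198 or fewer in the others. They therefore lower every CPM of summed counts given for suffix 3. Another 3 barcodes of suffixes 1 and 2 held 1, 10 and 35 Ttr UMIs with 4 to 6 oligodendrocyte markers. In the remaining 270 barcodes Ttr made up 1.83% to 58.3% of UMIs, with a median of 33.4%.

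Enpp2, also unused by the rule, was present in 132 of 132, 137 of 137 and 4 of 6 choroid plexus barcodes, at 6781 CPM (6670 to 6893), 7505 CPM (7394 to 7617) and 4586 CPM (3966 to 5275) in suffixes 1, 2 and 3. The median barcode stood at 6309, 6346 and 7496 CPM of Enpp2, so suffix 3 was not lower per barcode. Aqp1 was counted in fewer of these barcodes, 53.8%, 54.7% and 33.3%, at 87.4 CPM (75.2 to 101), 105 CPM (92.3 to 119) and 70.2 CPM (14.5 to 205). The median barcode of suffixes 1 and 2 held 1 Aqp1 UMI, so a barcode without a UMI cannot be told apart from one whose few molecules were missed. Thinned to 1000 UMIs, 8.92% of the barcodes of suffixes 1 and 2 still held an Aqp1 UMI and 95.9% an Enpp2 UMI.

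The rule genes, described without a test, had UMIs in 93.5% (Folr1), 92.7% (Kl), 89.8% (Kcnj13) and 87.6% (Clic6) of the choroid plexus barcodes. Folr1 was at 993, 1115 and 445 CPM in suffixes 1, 2 and 3, and Kl at 567, 768 and 468 CPM. Kcnj13 was at 577, 669 and 140 CPM and Clic6 at 340, 330 and 257 CPM. In these summed counts, which include the 2 deep barcodes without Ttr, suffix 3 was lowest for all 4. Its intervals overlap that of suffix 1 for Kl and those of both other suffixes for Clic6. The median barcode held Kl at 525, 706 and 653 CPM in suffixes 1, 2 and 3, while the medians of the other rule genes were lowest in suffix 3. Each molecule was counted near its 3′ end and not per length, so these values are not ranked between genes.

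**Figure D1:**
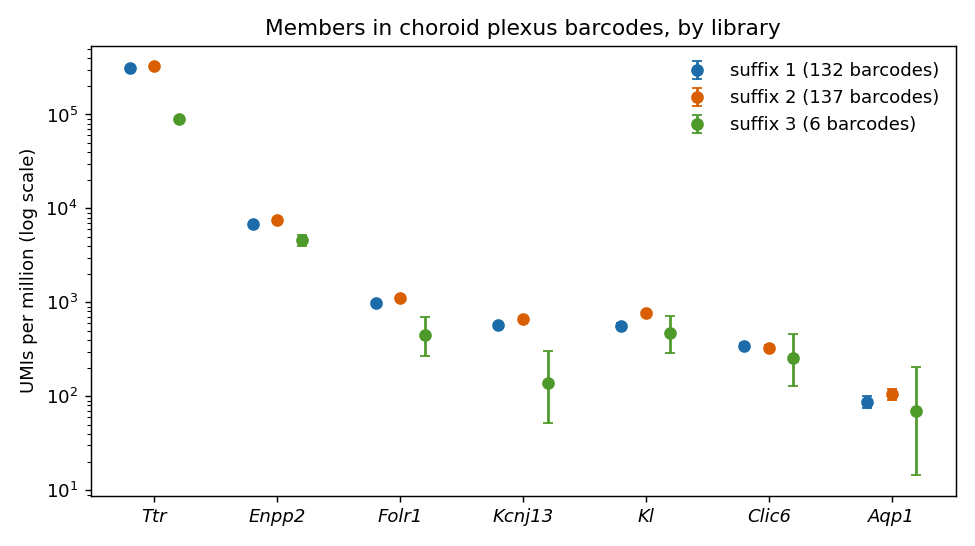
CPM (log scale) of the 7 members in choroid plexus barcodes of suffix 1, 2 and 3, with exact Poisson 95% intervals. Ttr stood at 309323 and 324194 CPM in suffixes 1 and 2. The summed counts of the 6 barcodes of suffix 3, which include the 2 deep barcodes without Ttr, lay lower with wider intervals.

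Across the 275 barcodes the rank correlation differed between pairs of members. These barcodes were chosen by counts of the rule genes, which shapes the correlations of these genes, and few UMIs lower a correlation. The values therefore cannot show whether the members vary as 1 block and are only described. Spearman's rho, given as a description of barcodes that share libraries and with counts scaled to the UMIs other than Ttr, was 0.71 between Ttr and Folr1, 0.66 between Ttr and Kcnj13 and 0.62 between Ttr and Enpp2. Enpp2 and Kl stood at 0.67. Clic6, with a median of 3 UMIs, had values from 0.06 (Kcnj13) to 0.24 (Kl), with 0.16 to Ttr. Aqp1, with a median of 1 UMI, had 0.32 to Ttr, 0.42 to Folr1 and 0.43 to Enpp2. The share of UMIs taken by Ttr had a rho of 0.13 with the total UMIs of the barcode.

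The genes that the rule did not use separated barcodes at its threshold. In suffixes 1 and 2 together, 22164 barcodes held no rule gene, 305 held 1, 25 held 2, 44 held 3 and 200 held 4. The median Ttr count in these was 1, 1, 424, 870.5 and 5764.5 UMIs. Just outside the threshold Ttr stood at 889 CPM and just inside at 104878 CPM. Enpp2 was at 330, 177, 2754, 4910 and 7465 CPM in the same order, and Aqp1 at 0.0594, 0.285, 37.5, 60.4 and 101 CPM. Barcodes with 1 rule gene thus had the same median Ttr count as those with none, but a mean of 10.2 against 0.935 UMIs. Without barcodes of 20 or more Ttr UMIs the means were 1.20 and 0.880. Ttr, Enpp2 and Aqp1 were each highest with 4 rule genes and lower with 3 and 2. Deeper barcodes show more rule genes by depth alone.

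**Figure D2:**
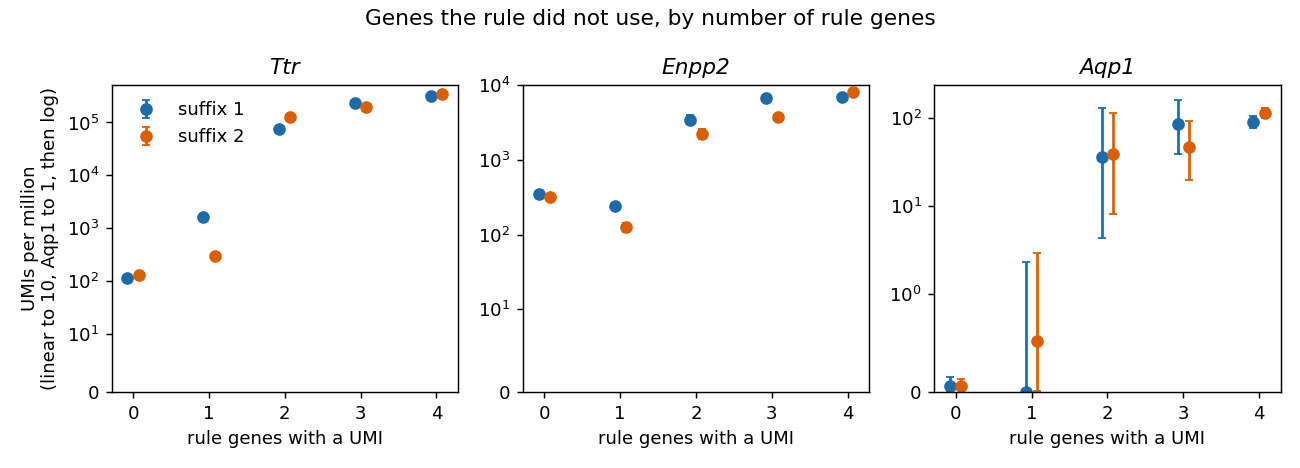
Ttr, Enpp2 and Aqp1 (CPM, axis linear near 0 and then logarithmic) against the number of rule genes with a UMI, for suffixes 1 and 2, with exact Poisson 95% intervals. In suffixes 1 and 2 together Ttr went from 889 CPM with 1 rule gene to 104878 CPM with 2.

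Ttr was also counted throughout the other barcodes, at a level that differed by library. Of the barcodes with no rule gene, 54.7% of suffix 1 (53.6 to 55.7) and 53.8% of suffix 2 (52.9 to 54.6) held a Ttr UMI, against 0.565% of suffix 3 (0.422 to 0.74). The mean was 0.864, 0.981 and 0.0063 UMIs per barcode, and the level 111, 131 and 0.862 CPM. Suffixes 1 and 2 hold the many choroid plexus barcodes and suffix 3 the few. Choroid plexus barcodes nevertheless held 98.5%, 98.2% and 90.6% of all Ttr UMIs of the kept barcodes in suffixes 1, 2 and 3.

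**Figure D3:**
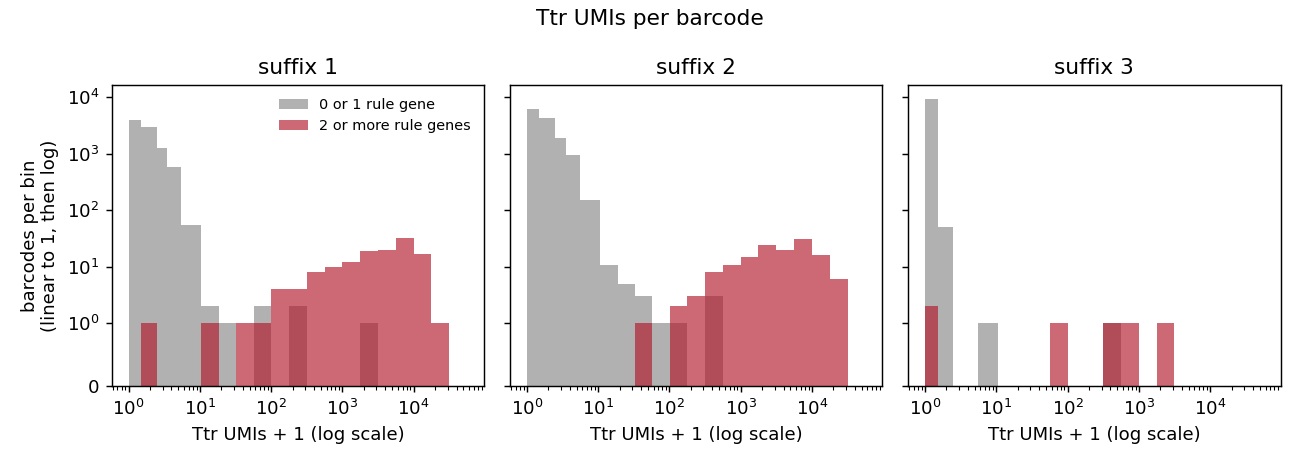
Number of barcodes (linear to 1, then log) by Ttr UMIs plus 1 (log scale) for each suffix, with barcodes of 0 or 1 rule gene in grey and of 2 or more in red. Grey barcodes pile up at few UMIs in suffixes 1 and 2, where 54.8% and 53.9% hold a Ttr UMI, and almost wholly at 0 in suffix 3, and red barcodes lie mostly above 100 UMIs.

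Every class with 50 or more barcodes in suffixes 1 and 2 held Ttr. In suffix 1 the level ran from 95.5 CPM in neuron-like and 102 CPM in NK cell-like barcodes, through 110 in oligodendrocyte-like, 111 in microglia-like and 118 in T cell-like barcodes, to 195 in neutrophil-like and 207 CPM in astrocyte-like barcodes. In suffix 2 it ran from 118 CPM in microglia-like to 288 CPM in neutrophil-like barcodes. Neighbours in this order mostly had overlapping intervals, such as microglia-like and oligodendrocyte-like barcodes of suffix 1 (108 to 115 and 105 to 116). A Ttr UMI was held by 53% of T cell-like barcodes of suffix 1 and 48.8% of suffix 2, and its source was not tested. In suffix 3 the classes lay between 0 and 14 CPM, and the highest of these, in oligodendrocyte-like barcodes, came mostly from 1 barcode with 333 Ttr UMIs. After thinning to 1000 UMIs, Ttr remained in 13.98% of the microglia-like barcodes of suffix 1, 13.4% of suffix 2 and 0.0526% of suffix 3. For T cell-like barcodes the shares were 12.9% and 16.6% in suffixes 1 and 2, and for oligodendrocyte-like ones 12.3% and 13.9%.

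Ttr counts outside the choroid plexus barcodes varied far less than depth. In barcodes of suffix 1 without a rule gene, the mean was 0.584 Ttr UMIs at a depth of 1000 to 2000 and 1.41 at 16000 or more, while the level was 405 and 66.1 CPM. Suffix 2, without barcodes of 20 or more Ttr UMIs, went from 0.672 to 1.59 UMIs per barcode. Barcodes under 1000 UMIs, outside the filter, held 0.629 and 0.636 UMIs in suffixes 1 and 2 on the same terms. A nearly even count per barcode gives a higher CPM in shallow barcodes, and the part of depth in the order of classes was not tested.

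A few barcodes that the rule did not take held many Ttr UMIs. Among those with 0 or 1 rule gene, 13 held 50 or more Ttr UMIs, with a median of 213 and a highest value of 1793. Ttr took 0.559% to 30.7% of the UMIs in these 13. The 270 choroid plexus barcodes with 50 or more Ttr UMIs had 1.83% to 58.3%, so the ranges overlap. Enpp2 was counted in 12 of the 13, 7 held 1 rule gene and 6 held none. Their median depth was 3824 UMIs, and 6 of the 13 had no class. They were left in the class values above and taken out of the ratios below.

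The composition of free RNA was not measured, and the source of choroid plexus transcripts in other classes was not tested. Their UMIs were set against Ttr UMIs as a ratio. This ratio was computed in suffixes 1 and 2 for 9 classes with at least 50 Ttr UMIs, leaving out barcodes with 20 or more, and is given relative to choroid plexus barcodes. For the rule genes it is lowered by construction, because barcodes with 2 or more of them were taken out of the classes. The secreted-peptide gene 1500015O10Rik (Ecrg4) had a median ratio of 0.999 over the classes, and its interval held 1 in 9 of 9. NK cell-like, neutrophil-like, oligodendrocyte precursor-like, astrocyte-like and neuron-like barcodes held only 1 to 4 of its UMIs each. In microglia-like barcodes its ratio was 0.999 (0.809 to 1.22) with 96 UMIs. Barcodes without a class, outside these 9, were at 3.89 (3.23 to 4.63) with 125 UMIs of 1500015O10Rik. Kcne2, a potassium channel subunit, held 1 in 9 of 9 as well, from few UMIs. Both are among 12 called list genes with 1000 or more UMIs in choroid plexus barcodes, and the others did not hold 1 throughout. Sostdc1, F5 and Prlr held it in 7 classes each, Igfbp2 in 5, Krt18 in 3, Clu and Rdh5 in 1 each and Atp1b1 in 0. Igfbp2 was above 1 in 2 classes and below it in 2.

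Enpp2 was above 1 in 9 of 9 classes. It was 473 (466 to 480) in oligodendrocyte-like, 82.2 (75.7 to 89.1) in oligodendrocyte precursor-like and 4.15 (2.32 to 6.85) in neuron-like barcodes, the lowest. Oligodendrocyte-like barcodes held Enpp2 at 1262, 1237 and 1348 CPM in suffixes 1, 2 and 3, with a UMI in 96.8%, 96.3% and 96.5% of them, and oligodendrocyte precursor-like barcodes at 267, 260 and 415 CPM. Enpp2 was thus counted in suffix 3 as well, where Ttr was near 0. In microglia-like barcodes Enpp2 was 11.9 and 11.4 CPM in suffixes 1 and 2 and 54 CPM in suffix 3, which is the opposite order to that of Ttr.

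**Figure D4:**
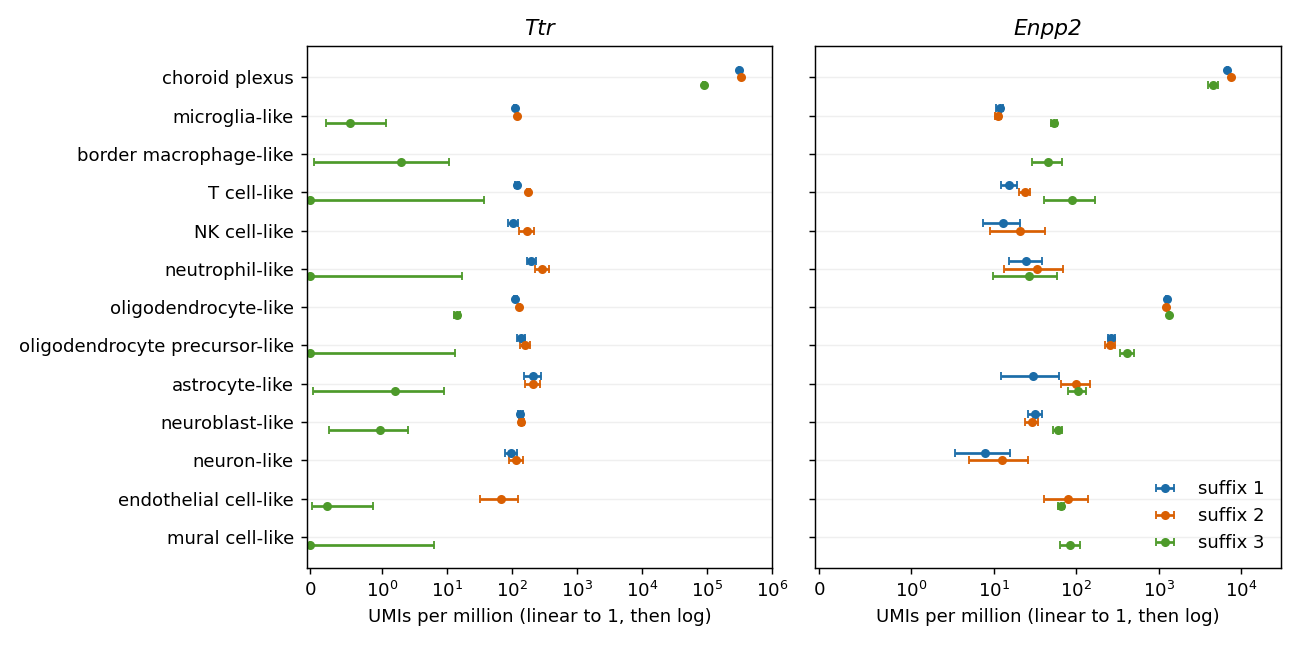
Ttr and Enpp2 (CPM, linear to 1 and then log) in each class and suffix with at least 20 barcodes and in choroid plexus barcodes, with exact Poisson 95% intervals. Ttr ran from 66.1 CPM (endothelial cell-like) to 288 CPM (neutrophil-like) in the classes of suffixes 1 and 2 and reached at most 14 CPM in those of suffix 3, whereas Enpp2 stood at 1237 to 1348 CPM in oligodendrocyte-like barcodes of all 3 suffixes.

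Folr1 held the ratio 1 in 7 of 9 classes and exceeded it in microglia-like barcodes, at 4.08 (3.36 to 4.91), and in astrocyte-like barcodes, at 14.9 (4.82 to 34.7). The astrocyte-like value came from 5 UMIs of 1 barcode. Neutrophil-like, oligodendrocyte precursor-like and neuron-like barcodes held no Folr1 UMI, where the choroid plexus ratio gives 0.746, 1.08 and 0.533. Counts this low cannot show whether the ratio was kept. In microglia-like barcodes 115 UMIs in 111 of 8306 barcodes were counted, where the choroid plexus ratio gives 28.2, and the ratio was 4.32 (3.09 to 5.88) in suffix 1 and 3.91 (3.06 to 4.93) in suffix 2, each relative to choroid plexus barcodes of the same suffix. Relative to the choroid plexus barcodes of both suffixes it changed with depth, from 1.37 (0.446 to 3.21) in barcodes of 1000 to 4000 UMIs through 1.97 (1.10 to 3.25) and 3.26 (2.25 to 4.56) to 9.37 (7.16 to 12.1) in those of 16000 or more. After thinning to 1000 UMIs it was 1.68 (0.668 to 3.50) from 7 UMIs, so that the excess was not detectable there. The Folr1 level was 1.24, 0.989, 1.02 and 2.25 CPM over the same depths, and 1500015O10Rik kept ratios of 1.29, 1.0, 0.872 and 1.04. In suffix 3, 0 of 1901 microglia-like barcodes held Folr1. Anapc15, which overlaps Folr1, Gigyf2, which overlaps Kcnj13, and the related folate receptor gene Folr2 were looked up after the values were seen. Anapc15 was at 29.4, 30.1 and 30.9 CPM in microglia-like barcodes of suffixes 1, 2 and 3, and Folr2 at 22.8, 23.2 and 0.857 CPM. The part of either gene in the Folr1 counts was not tested.

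Ependymal-like barcodes, 25 in all, held Folr1 without the other rule genes. They had 151 CPM (60.6 to 311), 163 CPM (86.6 to 278) and 234 CPM (139 to 370) in suffixes 1, 2 and 3, with a UMI in 13 of 25. Ttr was at 86.1, 163 and 0 CPM in them, and Clic6, Kl, Kcnj13 and Aqp1 had no UMI. An ependymal-like barcode with a UMI of a further rule gene would have been counted as choroid plexus, as the 2 barcodes of suffix 3 without Ttr were.

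The remaining members were rare outside the choroid plexus barcodes. Kcnj13 held the ratio 1 in 8 of 9 classes. In NK cell-like, neutrophil-like, astrocyte-like and neuron-like barcodes it had 0 UMIs, too few to show whether the ratio was kept. It exceeded the ratio 1 in neuroblast-like barcodes, at 6.41 (3.41 to 11) from 13 UMIs. Its level there was 1.70 CPM in suffixes 1 and 2 and 0.486 CPM in suffix 3, and Gigyf2 was at 52.5, 54.3 and 50.7 CPM. Clic6 exceeded 1 in astrocyte-like barcodes from 5 UMIs, Kl in neuron-like barcodes from 3 UMIs and Aqp1 in neuroblast-like barcodes from 4 UMIs. These 3 counts are too few to describe a level. Kl was also counted in 4 of 16 fibroblast-like barcodes of suffix 3, at 55.2 CPM (17.9 to 129).

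**Figure D5:**
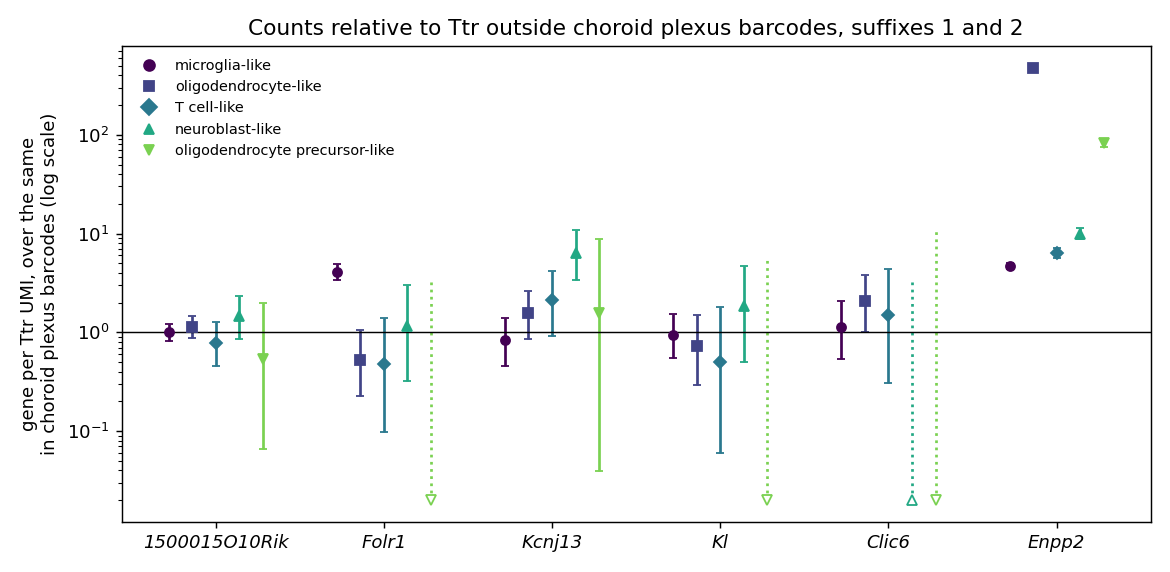
UMIs of 6 genes per Ttr UMI in 5 classes of suffixes 1 and 2, divided by the same in choroid plexus barcodes (log scale), with 95% intervals that take the Ttr UMIs as fixed. Open symbols with dotted lines mark a count of 0 and its upper bound. 1500015O10Rik lies around 1, Folr1 reaches 4.08 in microglia-like and Enpp2 473 in oligodendrocyte-like barcodes.

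The choroid plexus barcodes were then described by lists of genes for the work of this epithelium. Of 92 listed genes 79 were tested, with 100 or more UMIs, and 35 were called higher, at 10-fold or more over all other barcodes. Over all genes 377 of 15080, or 2.5%, were called. The lists were chosen with earlier results of these data known, so this contrast is a description and not an independent check. The median fold was 5.61 over the listed genes and 0.514 over all genes tested, and the UMIs taken by Ttr lower the CPM of every other gene in choroid plexus barcodes by construction. All 35 called genes were at 10-fold or more within suffix 1 and within suffix 2, and 25 within suffix 3. Suffixes 1 and 2 hold 269 of the 275 choroid plexus barcodes, so the pooled calls largely follow from them. In suffix 3 few UMIs give a high fold, as for the serotonin receptor gene Htr2c, at 23.4 CPM and 527-fold. The suffix 3 sums also include the 2 deep barcodes without Ttr. Of the 3 members that the rule did not use, Ttr was 3111-fold, Aqp1 1215-fold and Enpp2 17.6-fold higher. The fold of Enpp2 was 19.5, 24.0 and 7.54 in suffixes 1, 2 and 3, and oligodendrocyte-like barcodes are part of the other barcodes.

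Folds pooled over the suffixes set choroid plexus barcodes that come almost wholly from suffixes 1 and 2 against other barcodes that include suffix 3, which held 1005 of the 1029 endothelial cell-like barcodes. Without suffix 3, 39 list genes were called, 33 of them among the 35. Ocln, Slc31a1, Slc22a8, Stra6, Slco1a4 and Slco1c1 were called in addition, and Igf2 and Lepr fell under 100 UMIs and were not tested. Of 75 list genes tested both ways, 20 had a fold that differed by over 1.5 times, and all 20 were higher without suffix 3. The same counts over all genes are not given for this setting, so these counts do not set the list genes apart. Folds below are pooled unless said otherwise, and the value without suffix 3 follows where it differs by that much.

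Genes of ion and water transport were called in 6 of 12 tested. Kcne2 was at 315 against 0.104 CPM, Slc4a5, a sodium bicarbonate cotransporter, at 101 against 0.0919 CPM (1945-fold without suffix 3), and Car12, a membrane carbonic anhydrase, at 100 against 0.234 CPM. Slc4a10, Atp1b1 and Trpv4 were 71.5-, 17.0- and 17.2-fold higher, and Trpv4 was 38.0-fold higher without suffix 3. Slc12a2, the sodium potassium chloride cotransporter of the apical membrane, was 1.09-fold and not called. Car2 was at 656 against 1023 CPM. Cftr and Kcnq1 had no UMI in these barcodes.

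Secreted proteins were called in 9 of 11. 1500015O10Rik was at 3584 against 3.17 CPM, Igfbp2, an insulin-like growth factor binding protein, at 1564 against 2.59 CPM (1573 against 1.57 CPM without suffix 3), and Sostdc1, a secreted BMP and Wnt antagonist, at 565 against 0.384 CPM. Clu, F5, Ace, Bmp7, Igf2 and Wfikkn2 were 17.9- to 168-fold higher. Without suffix 3, F5, coagulation factor V, was 890.5-fold, Ace, the angiotensin-converting enzyme, 379-fold and Clu, clusterin, 67.2-fold higher. Igf2, with 78 UMIs in choroid plexus barcodes and 6 in others, then stood at 506-fold. Trf and Cst3, both also made by glia, were at 0.293 and 0.337 times the level of the other barcodes.

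A mixed list of epithelial genes, not limited to the cytoskeleton, was called in 5 of 6. In it Krt8 and Krt18, the keratins of simple epithelia, were 743- and 536-fold higher, and Ezr at 5.61-fold was not called. Junction genes were called in 3 of 7. Cldn2, the claudin of leaky cation-permeable junctions, was 3489-fold higher at 72.9 against 0.0209 CPM, Cldn3 181-fold and Cldn1 64.9-fold, while Tjp1, Cdh1 and Epcam were under 1-fold. Ocln, which encodes the junction protein occludin, was 2.10-fold pooled and 14.4-fold without suffix 3. Among 6 transcription factors tested, Otx2, which specifies the choroid plexus, was 347-fold and Msx1 65.9-fold higher, or 253-fold without suffix 3. Foxj1, the regulator of motile cilia, was 4.90-fold and not called.

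Retinol and thyroid hormone genes, which act beside transthyretin, were called in 3 of 9. Rdh5, a retinol dehydrogenase, was 135-fold higher. Slco1c1, a thyroid hormone transporter, was 5.46-fold and not called, but 323-fold in suffix 1, 101-fold in suffix 2 and 1.31-fold in suffix 3, where the other barcodes held 143 CPM. Stra6, a receptor for retinol-binding protein, was 7.60-fold pooled and 202-fold without suffix 3, and Slco1a4, an organic anion transporter, 0.468-fold and 21.7-fold. Rbp4 had no UMI in the choroid plexus barcodes. Uptake genes were called in 4 of 12, namely Steap1, Slc13a4, Slc16a8 and Slc29a4. The folate transporters Slc19a1 and Slc46a1, which act beside Folr1, were 3.92- and 2.30-fold and not called. Slc19a1 was 8.17-fold without suffix 3, also under the call. Receptors were called in 3 of 5, with the prolactin receptor Prlr 615-fold, the serotonin receptor Htr2c 1661-fold and the leptin receptor Lepr 37.7-fold higher. Lepr was 384.5-fold in suffix 1 and 272-fold in suffix 2, with 78 UMIs in choroid plexus barcodes of both, and had no UMI in the 6 of suffix 3.

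The partners of the products of Enpp2 and Kl were not called. Of 7 genes tested for lysophosphatidic acid receptors and phosphatases 0 were called, 6 were under 1-fold, and Lpar1 was at 10.3 against 106 CPM. The exception, Plpp1, was 2.86-fold higher. The median over all genes tested was 0.514-fold, so a fold under 1 does not set these genes apart. Lpar4 was 0.523-fold pooled and 1.04-fold without suffix 3, from 3 UMIs. Of 4 klotho partners tested 0 were called. As 2.5% of all genes were called, 0 calls in lists this short do not set these partners apart either. Fgfr1, a receptor that binds klotho, was 3.82-fold (6.56-fold without suffix 3), and Fgf23 had no UMI in the choroid plexus barcodes.

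The 10 highest pooled folds among the genes tested, rule genes left out, were those of Cldn2, Ttr, Kcne2, Defb11, Prr32, Ins2, Cox8b, Sult1c2, 2900040C04Rik and Htr2c, from 3489 to 1661. Ins2, an insulin gene, was at 40.4 CPM with a UMI in 34.5% of choroid plexus barcodes, at 48.9, 33.3 and 0 CPM in suffixes 1, 2 and 3. Over 17 classes, the patterns of log2(CPM + 10) most like Ttr were those of Kcne2 (Pearson's r 0.95), Tmem72, 2900040C04Rik, Car12 and Tjp3. Those most like Aqp1 were Rd3l, Ins2, Sult1c2, Slc4a5 and Defb11, with r from 0.9989 to 0.9992, all of them near 0 in every other class. Those most like Enpp2 were Pcolce2 (0.94), 4732419C18Rik, Klhl31, Tmem98 and Cryab, for a gene with a level of its own in oligodendrocyte-like barcodes.

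Markers of other classes were counted in many choroid plexus barcodes. Ependymal markers, 3 or more of 6, were found in 144 of 275, through Dynlrb2, Cfap126, 1110017D15Rik and Pifo in 57.1% to 63.6% of barcodes, while Tmem212 and Ccdc153 were in 0.727% each. These 4 are genes of cilia, which the choroid plexus epithelium also carries. Microglia markers, 3 or more, were found in 27 and oligodendrocyte markers in 21. Leaving out the 59 barcodes with 3 or more markers of a class other than ependymal, a step added after seeing the data, left 216, in which Ttr took 35.5% of UMIs and 34 list genes were called. No doublet caller was run, and the part of doublets in these values was not tested.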

How the data were processed

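Single-cell suspensions of 3 pooled brain samples, 1 per condition, were sequenced with droplet 3′ chemistry. The authors deposited 1 matrix of UMI counts for all libraries, made with Cell Ranger 3.1.0 and STAR on mm10 with reads down-sampled across libraries. The submitters' processing notes also name Seurat 3.1.1. Counts are whole numbers with no normalization per barcode. No barcode suffix was assigned to a condition. The members, markers and gene lists were chosen with earlier results of these data known.

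Barcodes needed 1000 UMIs and at most 30% mitochondrial UMIs. A class was the one with the most of its 6 markers, at least 3 and 2 more than the next, after the choroid plexus rule. Named genes are the members, list genes, the 10 highest folds and the 5 genes most like Ttr, Enpp2 and Aqp1. A fold is the ratio of CPM of summed counts, with counts outside under 3 set to 3, and a call needed 10 UMIs in choroid plexus barcodes. Of 31053 gene identifiers, 99.6% matched GENCODE M21. The fold, rule and ratio steps were tested on simulated data, where the ratio to Ttr came out too low unless barcodes with 20 or more Ttr UMIs were left out, as done here. The simulated free RNA was a fixed share of each barcode, so it rose with depth, whereas Ttr counts in the data varied far less than depth. The simulation therefore does not check how the ratio behaves over depth. Python 3.11.15, NumPy 2.4.6, SciPy 1.17.1, pandas 2.3.3 and Matplotlib 3.10.9 were used. A few genes of the lists are counted but not reported by name here.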

Additional observations from a re-analysis of the deposited data

How the results depend on the processing

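No paired analysis was possible because no result comes from a test and each condition has 1 library. The number of choroid plexus barcodes (275), the share of their UMIs taken by Ttr (31.5%), the median Ttr count with 4 rule genes (5738 over all suffixes), the share of other barcodes with Ttr in suffixes 1 and 2 (54.3%), Ttr in microglia-like barcodes there (115 CPM), the Enpp2 to Ttr ratio of oligodendrocyte-like barcodes (473) and the list genes called (35) were recomputed. Values outside the counting interval, or counts that changed over 1.5 times, follow. A minimum of 500 UMIs gave a Ttr share outside of 53.5%, and 2000 UMIs gave 55.5%, 109.8 CPM and a ratio of 496.5. A mitochondrial limit of 10% gave 31.6%, 55.3% outside and a ratio of 540.0. Upper limits of the mean plus 2 SD gave 31.8%, a median of 3455, 52.8% outside, 129 CPM and a ratio of 517. Needing 3 of 4 rule genes gave 32.3% and 138 CPM. Leaving out choroid plexus barcodes with 3 markers of any other class left 93, with 37.4%, a median of 2953 and a ratio of 415. Sparing ependymal markers, added after seeing the data, gave 35.5% and a ratio of 484. A margin of 1 marker gave a ratio of 465.9. Thinning to 1000 UMIs gave 157 barcodes, 30.3%, a median of 355, 14.7% outside, 178 CPM, a ratio of 337 and 13 list genes called. These counts fall with the number of UMIs left per barcode. Leaving out each suffix in turn gave 138 to 269 barcodes, 30.5% to 31.99%, 111 to 118 CPM and ratios of 428 to 543. The alternatives for the median count, for Ttr in microglia-like barcodes other than the margin, for the ratio under the margin and for Folr1 were also chosen after seeing the data. The Folr1 to Ttr ratio of microglia-like barcodes stayed above 1 under all 11 alternatives, from 1.68 when thinned to 4.32, and the thinned interval held 1. With 6 choroid plexus barcodes, suffix 3 limits every value given for it.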
